A study of Mus musculus with 4 samples.

Results

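Of 13345 called cells from pancreatic islets of NOD and Tet2-deficient NOD mice, 1640 carried a T-cell receptor beta (TRB) contig that was not flagged productive. A cell was taken when it held at least 1 high-confidence TRB contig, assembled from the reads of that cell, that named both a V and a J segment and was not flagged productive. The class holds failed joints and also contigs assembled in part, since 1131 of its 1688 contigs were full length. The flag itself depends on the segment where a V carries a stop codon, as described below for Trbv4 and, from the reference genome only, for Trbv24. Depth is given in UMIs (unique molecular identifiers, copies of RNA counted once). Tet2KO NOD libraries 1 and 2 gave 199 of 1957 and 193 of 1664 called cells, and NOD libraries 1 and 2 gave 873 of 6835 and 375 of 2889. Tet2KO NOD mice, labelled KO, lack Tet2, a dioxygenase acting on methylated cytosines, through a Tet2-/- allele bred from a B6 background into NOD for over 14 generations. NOD mice, labelled WT, are a strain that develops autoimmune diabetes spontaneously. Each genotype had 2 libraries, and each library pooled the islets of 4 to 6 mice, so the pool is the replicate and receptors of single mice cannot be told apart. The design text counts 10 to 13 weeks as the age of the mice, whereas the protocol counts those weeks from an event abbreviated BTM and mentions bone marrow donors. It was not settled here if the mice had received a transplant.

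A TRB gene is assembled in the thymus in 2 steps, first D to J and then V to DJ, with bases lost and added at each joint. A joint whose V and J are in different reading frames, or that contains a stop codon, encodes no receptor, and the cell can then rearrange its other allele. A failed rearrangement stays in the genome of the cell and its progeny and can be transcribed, but because no protein is made from it, it is carried through thymic selection by the working allele. Transcripts with a premature stop codon are known to be degraded by nonsense-mediated decay. Its V and J use is therefore commonly read as the repertoire before selection for the receptor.

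The TRB contigs of called cells held 26938 and 26137 UMIs in Tet2KO NOD 1 and 2, and 103167 and 56924 in NOD 1 and 2. NOD 1 gave 873 of the 1640 cells, so sums over all cells lean towards that library and values are given by library where it matters. All 1546 nonproductive contigs with a named constant segment paired their J cluster with its own constant segment, as did all 13663 productive contigs. A productive alpha chain was present in 92.1% of the 1640 cells, against 89.7% of all called cells. A delta chain contig was found in 29 of the 1640 cells and in 232 of all called cells. No gamma or immunoglobulin contig was found in any called cell, so their absence from the 1640 does not set these cells apart. No expression table was used here, so the islet label was not checked against other genes. Libraries shared 81 called barcodes, 20 of them held by these cells in at least 1 library. In 2 cases the same nonproductive V and J stood beside the same productive TRB sequence in more than 1 library. Of the 1640 cells, 89 had no productive TRB, 1454 had 1 and 97 had 2, and doublets were not removed, since these tables allow no doublet call apart from such counts.

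The 1640 cells held 1688 nonproductive contigs, 1 in each of 1594 cells, 2 in 44 cells and 3 in 2 cells. Cells of a clone share a rearrangement, so contigs with the same V and J in cells with the same productive TRB in a library were counted once. This left 154 and 173 distinct nonproductive rearrangements in Tet2KO NOD 1 and 2 and 616 and 305 in NOD 1 and 2, in all 1248. The same libraries held 1071, 1158, 4336 and 1997 distinct productive rearrangements (V, J and CDR3 bases), in all 8562. Of the 1248, 72 came from cells with 2 productive TRB, and 14 of these repeated the V and J of a clone with 1 productive TRB that the cell also matched.

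The germline ends of 3 V segments carry much of what follows, and the last 30 bases are shown, read from GRCm38 with RefSeq gene positions, with the codon of the conserved cysteine that opens the CDR3 and any stop codon in its reading frame in capitals. The first 267 to 279 bases of all 22 deposited V names matched GRCm38 without a mismatch at a single place on chromosome 6, so names could be checked against positions.
Trbv4, chr6:41059857-41059886 on the plus strand: tgctgtgtatctcTGTgccagcagcTAAga
Trbv23, chr6:41216497-41216526 on the plus strand: agcactgtacttgTGCtccagcagtcaatc
Trbv24, chr6:41218528-41218557 on the plus strand: agcactgTAGctcTGTgccagcagtctgta
The contigs named TRBV10 in the deposited tables matched Trbv4, in all 483 productive contigs compared, and not the Trbv10 segment. Trbv4 ends in a TAA that is codon 5 when the cysteine is codon 1. Of the segments named in the tables it was the only one with a stop codon after the cysteine. Trbv24, a segment known to be nonfunctional in several mouse strains, has in GRCm38 a TAG 2 codons before its cysteine. No deposited contig bears the name of Trbv24, so this stop codon was not checked in sequence from these mice.

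The CDR3 calls of nonproductive contigs named TRBV23 matched Trbv24 better than Trbv23, but many of these contigs had no call. Of 98 distinct nonproductive rearrangements named TRBV23, 93.9% were not full length, and 58 had a CDR3 call. In 57 of the 58 the CDR3 matched the end of Trbv24 over more letters than that of Trbv23. Trbv24 was among the longest matches of all germline V ends in 53 and alone the longest in 9. All 9 distinct productive rearrangements named TRBV23 matched Trbv23 over more letters. Of the 57, 34 began in the frame of the Trbv24 cysteine and 23 did not. From the cysteine on, the germline end of Trbv26 differs from that of Trbv24 only in its last letter. A longer match than to Trbv23 therefore does not by itself single out Trbv24. Below, 3 of the CDR3 calls are shown because they keep 17 letters of Trbv24, in capitals, the rest being D, J and added bases.
NOD 2, a: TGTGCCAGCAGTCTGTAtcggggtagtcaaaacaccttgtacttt
NOD 2, b: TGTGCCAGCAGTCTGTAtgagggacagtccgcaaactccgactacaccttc
NOD 2, c: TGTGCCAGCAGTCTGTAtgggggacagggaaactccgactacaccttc
Sequence a was found in 10 cells of NOD 2 with 1 to 4 UMIs, and in 1 cell of Tet2KO NOD 2 whose barcode was not called in another library. In what follows TRBV23 is the deposited name, whichever segment its contigs came from.

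**Figure D1:**
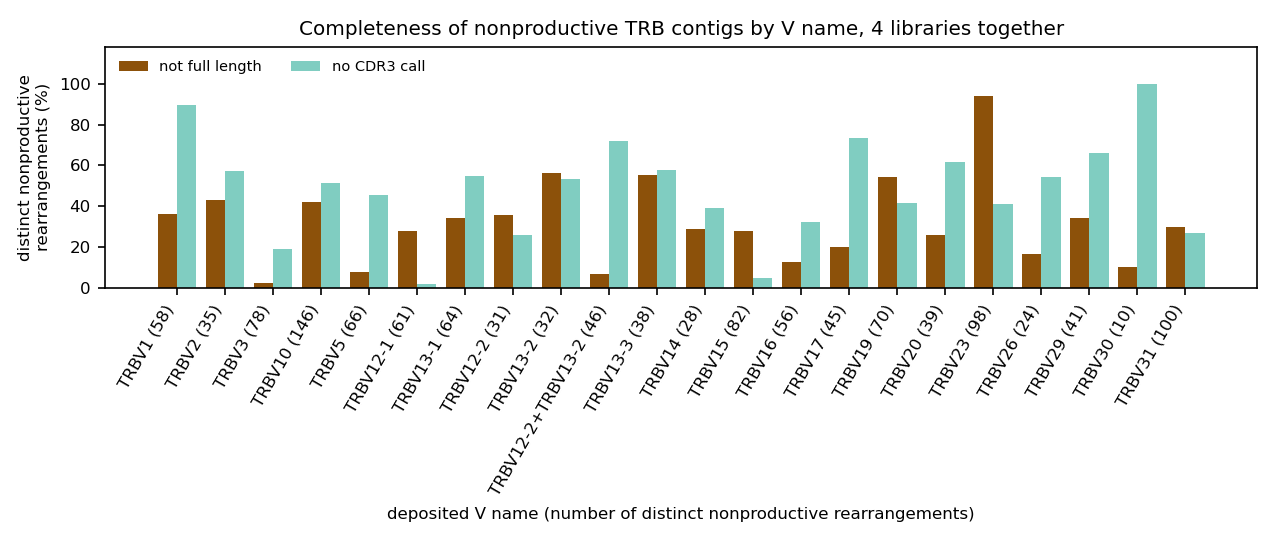
Share of distinct nonproductive rearrangements (y axis, percent) that were not full length and that had no CDR3 call, by deposited V name along the chromosome, with the number of rearrangements in parentheses; all 4 libraries together. TRBV23 stands apart with 93.9% not full length, against 2.56% for TRBV3.

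In the Tet2KO NOD libraries 10.2% and 11.6% of called cells had a nonproductive TRB, against 12.8% and 13.0% in the NOD libraries. The groups did not overlap, with means of 10.9% ± 1.01 in Tet2KO NOD and 12.9% ± 0.147 in NOD (SD, n = 2 libraries each). The difference of -1.99 percentage points had an exact two-sided permutation p of 0.333, which is the smallest that 2 libraries against 2 allow. Counted by clone, where a clone is all cells with the same single productive TRB, the shares were 13.4% and 13.4% in Tet2KO NOD and 12.8% and 14.5% in NOD. Here the groups overlapped, and the difference was -0.23 percentage points (exact permutation p = 1). Among clones of 1 cell, 11.2% and 11.6% in Tet2KO NOD and 10.7% and 12.9% in NOD had a nonproductive TRB.

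Nonproductive contigs were less complete than the productive ones used here, all of which are full length. Full length was reached by 68.1% and 65.0% of nonproductive contigs in Tet2KO NOD and by 68.3% and 64.4% in NOD. A CDR3 was called in 59.8% and 55.8% in Tet2KO NOD and in 58.6% and 54.1% in NOD. All CDR3 calls had a length divisible by 3, and 4 of 704 distinct nonproductive calls contained a stop codon, so a call shows an open stretch and not the true joint of every rearrangement. A constant segment was named in 91.6% of nonproductive contigs and in 99.7% of productive ones.

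The frame of each CDR3 call was set against the cysteine of its named V, leaving out TRBV23. Of 646 distinct calls, 626 matched their V over at least 8 letters, and 378 of these (60.4%, 95% Wilson interval 56.5% to 64.1%) began out of the V frame. The share was 67.9% and 59.5% in Tet2KO NOD and 55.2% and 67.8% in NOD, so libraries of the genotypes overlapped. Calls out of the V frame were full length in 297 of 378 cases, and calls in the V frame in 129 of 248. Which V could show a shifted call differed widely. Out-of-frame calls made up 90.5% of 63 TRBV3 calls, 89.5% of 38 TRBV16 calls and 85.7% of 77 TRBV15 calls. None of the matched calls of TRBV2, TRBV17, TRBV20 and TRBV29, 12 to 15 calls each, or of the 6 TRBV1 calls was out of frame, and most rearrangements with these names had no CDR3 call, from 57.1% for TRBV2 to 89.7% for TRBV1.

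The stop codon at the end of Trbv4, printed above, was seen in nonproductive joints and was absent from productive ones, as the productive flag requires. Of 66 nonproductive CDR3 calls named TRBV10 that matched Trbv4, 26 kept its letters through the TAA, and 25 of these were read in a shifted frame in which the TAA is no codon. Of the 21 read in the V frame, 1 kept the TAA. Calls are open stretches, with a stop codon in 4 of 704, so these frame counts were largely set by how calls are made. No CDR3 was called in 75 of the 146 distinct nonproductive TRBV10 rearrangements. How many of those keep the TAA in the V frame was not tested. Among 251 distinct productive TRBV10 rearrangements 209 kept every letter up to the base before the TAA, and none kept the TAA. Every productive Trbv4 joint in these libraries thus lacked at least 1 letter of the TAA.

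Segment use of nonproductive rearrangements differed from productive use in the same libraries for 10 names that were higher (27.8% of 36 names tested) and 10 that were lower (27.8%). The test was edgeR's quasi-likelihood test with the library as a block and Benjamini-Hochberg adjustment over the 36 V, D and J rows, at an adjusted p of 0.05. Of the 21 V names tested 7 were higher, 8 lower and 6 were not called. Of the 12 J names 3 were higher, 2 lower and 7 not called, and no D row was called. The V shares of a class have a fixed total, so names that are higher push down the shares of other V names. TRBV10 and TRBV23 averaged 12.0% and 7.64% of nonproductive and 2.96% and 0.148% of productive rearrangements. The V names called lower are therefore not separate decreases, and single V names were not tested with TRBV10 and TRBV23 left out. For 17 of the 36 names (47.2%) the shares of the classes did not overlap over the 4 libraries, 16 of the 20 called names among them. Across V names the nonproductive shares of a library followed its productive shares weakly, with Pearson's r between 0.06 and 0.21 over 22 names. Between libraries r was 0.67 to 0.84 for nonproductive and 0.96 to 0.98 for productive shares, where fewer rearrangements stand behind the nonproductive ones. These correlations describe names that share libraries and depth, and carry no test.

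The name with the largest log2 fold change was TRBV23, held by 5.84% and 6.94% of nonproductive rearrangements in Tet2KO NOD and 7.31% and 10.5% in NOD. It was held by 0.187% and 0.259% of productive rearrangements in Tet2KO NOD and 0.046% and 0.10% in NOD. The log2 fold change, nonproductive over productive, was 6.08 ± 0.28 (SE, adjusted p = 3.37e-39). Of its nonproductive rearrangements, 57 of the 58 with a CDR3 call matched Trbv24 longer and 40 had no call, so the fold change is that of the name, and which segment the class holds was not settled. TRBV10, which is the Trbv4 segment, made up 10.4% and 14.5% of nonproductive rearrangements in Tet2KO NOD and 10.9% and 12.5% in NOD. Among productive rearrangements it made up 2.80% and 3.28% in Tet2KO NOD and 2.91% and 2.85% in NOD, and the log2 fold change was 1.99 ± 0.14 (adjusted p = 2.51e-24). It was the most frequent nonproductive V name, averaging 12.0% ± 1.83 over the 4 libraries, against 2.96% ± 0.218 among productive rearrangements (SD, n = 4).

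TRBV26 and the TRBV12 segments were also higher among nonproductive rearrangements. TRBV12-1 was at 3.25% and 4.05% of nonproductive rearrangements in Tet2KO NOD and 5.36% and 5.25% in NOD. Productive rearrangements named it in 2.15% and 1.30% in Tet2KO NOD and in 1.73% and 1.65% in NOD (log2 fold change 1.52 ± 0.20, adjusted p = 1.90e-09). TRBV12-2 averaged 2.35% ± 0.451 of nonproductive and 0.858% ± 0.016 of productive rearrangements (SD, n = 4), a log2 fold change of 1.51. TRBV26 averaged 1.86% ± 0.212 of nonproductive and 0.737% ± 0.216 of productive rearrangements, a log2 fold change of 1.46 (adjusted p = 0.000402). All 4 libraries had more of each in the nonproductive class, with no overlap. Together these names made up 7.79% and 7.51% of nonproductive rearrangements in Tet2KO NOD and 10.2% and 9.18% in NOD, against 3.20% to 3.55% of productive ones. The mean difference was 5.38 percentage points (exact sign-flip permutation p = 0.125 over 4 libraries, the smallest possible).

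Counts of TRBV26 were small, 24 nonproductive rearrangements in all, and its call was lost without NOD 1 (log2 fold change 1.14, adjusted p = 0.0838) and with each cell counted once (adjusted p = 0.0766). TRBV12-2 was at -0.13 when only out-of-frame calls were kept (adjusted p = 0.913), with 3 of its 23 matched calls out of frame, and its call was lost with each cell counted once (0.89, adjusted p = 0.159). TRBV17 was higher as well, 3.43% ± 0.469 of nonproductive against 1.57% ± 0.108 of productive rearrangements (log2 fold change 1.20, adjusted p = 3.44e-05). Its call was lost with each cell counted once (0.53, adjusted p = 0.271), and the contrast cannot be read among out-of-frame calls, of which TRBV17 had none.

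The TRBV13 family, the most used V family of the productive repertoire here, was lower among nonproductive rearrangements. Its names together held 11.0% and 11.0% of nonproductive rearrangements in Tet2KO NOD and 16.2% and 14.4% in NOD, against 28.0% and 27.9% of productive ones in Tet2KO NOD and 28.6% and 28.6% in NOD. The difference averaged -15.1 percentage points (exact sign-flip permutation p = 0.125). Of the family's 4 names 3 were lower. The joined name TRBV12-2+TRBV13-2, whose sequence is Trbv13-2, averaged 3.44% ± 1.10 of nonproductive against 11.5% ± 0.715 of productive rearrangements, a log2 fold change of -1.66 (adjusted p = 9.63e-12). TRBV13-1 was at -0.74 (adjusted p = 0.000722) and TRBV13-3 at -0.85 (adjusted p = 0.000507). The plain name TRBV13-2 was at -0.09 (adjusted p = 0.846). Both names match the same segment, and counted together they were at -1.20 ± 0.16 (adjusted p = 4.37e-10), with 5.19% and 4.62% of nonproductive rearrangements in Tet2KO NOD and 6.49% and 7.21% in NOD. The call of TRBV13-3 was lost without Tet2KO NOD 1 (adjusted p = 0.0723) and that of TRBV13-1 when each cell was counted once (adjusted p = 0.0728).

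**Figure D2:**
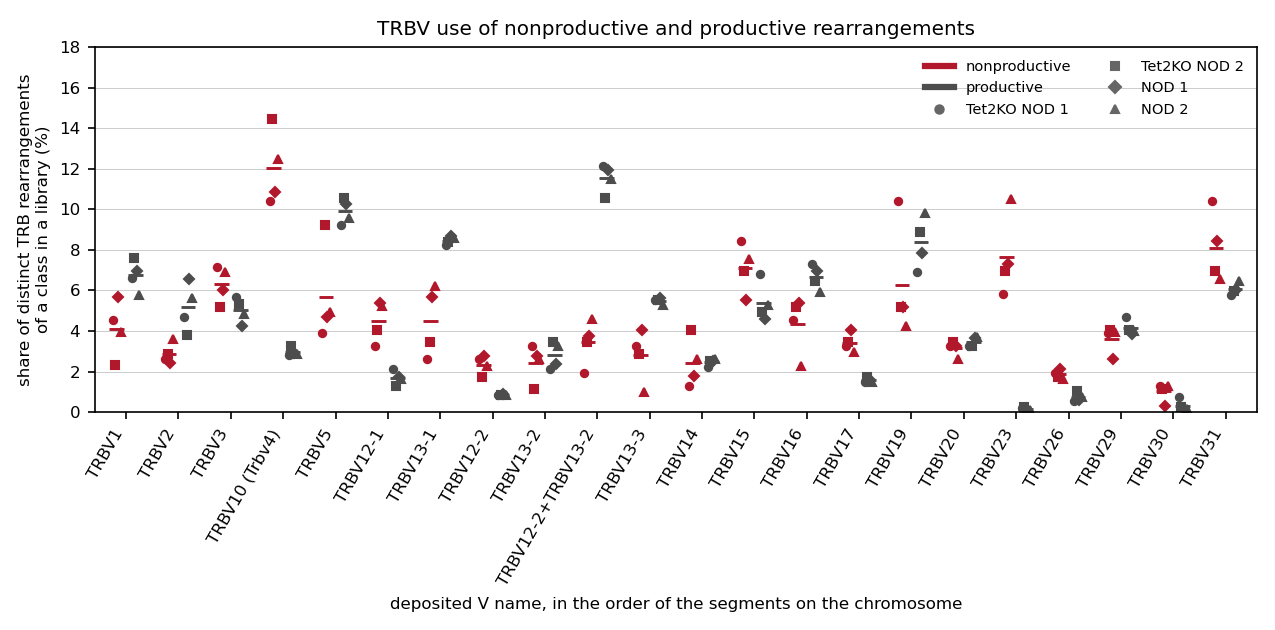
Share of distinct TRB rearrangements of a library and class that carry each V name (y axis, percent; x axis, names along the chromosome), nonproductive at the left of each pair and productive at the right, 1 point per library and a line at the mean of 4. TRBV10 (Trbv4) and TRBV23 lie higher in the nonproductive class in every library, and TRBV12-2+TRBV13-2 and TRBV13-1 lower.

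At the far end of the V cluster, TRBV2 and TRBV5 were lower among nonproductive rearrangements. TRBV2 had 2.60% and 2.89% of nonproductive rearrangements in Tet2KO NOD and 2.44% and 3.61% in NOD. It had 4.67% and 3.80% of productive rearrangements in Tet2KO NOD and 6.57% and 5.61% in NOD (log2 fold change -1.03 ± 0.22, adjusted p = 3.44e-05). Without NOD 1 its value was -0.62 (adjusted p = 0.11). TRBV5 was at -0.92 (adjusted p = 2.89e-05), with 9.25% of nonproductive rearrangements in Tet2KO NOD 2 and 3.90% to 4.92% in the other 3 libraries. Its call was lost among full-length contigs (-0.46, adjusted p = 0.0665) and with each cell counted once (adjusted p = 0.0786). TRBV1, which lies apart from the other V segments at the start of the locus, was at -0.53 (adjusted p = 0.0159), a call lost without Tet2KO NOD 1 (adjusted p = 0.0987) and without Tet2KO NOD 2 (0.11). TRBV16 and TRBV19 were each at -0.57, with adjusted p of 0.0108 and 0.00795. The TRBV16 call was lost without Tet2KO NOD 1 (adjusted p = 0.0774) or NOD 2 (0.0875), and the TRBV19 call without NOD 1 (0.131) or NOD 2 (0.10). TRBV16 turned to 0.43 among out-of-frame calls (adjusted p = 0.191).

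TRBV31, the only V segment that lies beyond the constant segments and joins by inversion, was at 10.4% and 6.94% of nonproductive rearrangements in Tet2KO NOD and 8.44% and 6.56% in NOD. Productive rearrangements used it in 5.79% and 5.96% in Tet2KO NOD and 6.04% and 6.46% in NOD (log2 fold change 0.39 ± 0.17, adjusted p = 0.0356). The call was lost without Tet2KO NOD 1 (adjusted p = 0.113) and without NOD 1 (0.312), and against the productive TRB of the same cells the value was 0.07 (adjusted p = 0.935). In NOD 2 the classes differed by 0.098 percentage points. TRBV3 and TRBV15, both frequent in the nonproductive class with means of 6.31% ± 0.884 and 7.11% ± 1.23 (SD, n = 4), had log2 fold changes of 0.40 (adjusted p = 0.0513) and 0.37 (0.0613). TRBV13-2, TRBV14, TRBV20 and TRBV29 were not called, with log2 fold changes between -0.29 and -0.09. TRBV30 had 10 nonproductive and 20 productive rearrangements and was below the count minimum of the test. By position, the names TRBV1 to TRBV5 together, with TRBV10 not among them, averaged 19.0% ± 0.644 of nonproductive and 26.8% ± 1.03 of productive rearrangements. TRBV10 is Trbv4, which lies between Trbv3 and Trbv5, and with it counted in the shares were 31.05% ± 2.44 and 29.81% ± 1.14, a difference of 1.24 percentage points (exact sign-flip permutation p = 0.5). The lower share of the far end thus turned on where TRBV10 was counted. TRBV23 to TRBV30 averaged 14.1% ± 2.25 and 5.36% ± 0.664 (SD, n = 4 libraries, exact sign-flip permutation p = 0.125, as for TRBV1 to TRBV5 without TRBV10). Leaving TRBV23 out of the names up to TRBV30, the difference was 1.82 percentage points.

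The J segments lie in 2 clusters, each behind a D segment and in front of a constant segment. Nonproductive rearrangements used the TRBJ1 cluster in 37.7% and 37.0% of cases in Tet2KO NOD and in 35.7% and 38.4% in NOD. Productive ones used it in 32.3% and 33.3% in Tet2KO NOD and in 34.1% and 31.8% in NOD. The nonproductive share was higher in all 4 libraries, by 4.28 percentage points on average (exact sign-flip permutation p = 0.125). The difference was 2.68 percentage points among contigs with 2 or more UMIs (exact p = 0.5) and 9.34 against the productive TRB of the same cells (exact p = 0.125). Within the cluster TRBJ1-6 had the largest log2 fold change, at 4.55% and 5.20% of nonproductive rearrangements in Tet2KO NOD and 5.19% and 6.56% in NOD. Productive rearrangements used TRBJ1-6 in 3.45% and 3.63% in Tet2KO NOD and in 3.21% and 2.95% in NOD (log2 fold change 0.75 ± 0.18, adjusted p = 0.000797). With DESeq2 the TRBJ1-6 adjusted p was 0.0623, and among out-of-frame calls it was 0.145. TRBJ1-3 was at 0.46 (adjusted p = 0.018) and TRBJ1-2 at 0.42 (adjusted p = 0.0326), and both calls were lost when any of 3 libraries was left out. Leaving out Tet2KO NOD 1, Tet2KO NOD 2 or NOD 2 gave TRBJ1-3 adjusted p of 0.0723, 0.0723 and 0.0629, and leaving out Tet2KO NOD 1, NOD 1 or NOD 2 gave TRBJ1-2 0.0839, 0.197 and 0.0762.

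TRBJ1-1 was lower among nonproductive rearrangements, at -0.50 (adjusted p = 0.0142), although Tet2KO NOD 1 had 10.4% in the nonproductive and 9.62% in the productive class. Its call was lost without NOD 1 (adjusted p = 0.214) or NOD 2 (0.0875), and the value was 0.01 against the productive TRB of the same cells (adjusted p = 0.985). TRBJ2-7, the most used J of the productive class, averaged 16.5% ± 2.79 of nonproductive and 20.3% ± 1.23 of productive rearrangements (log2 fold change -0.30, adjusted p = 0.00887). Without Tet2KO NOD 1, NOD 1 or NOD 2 its adjusted p was 0.0723, 0.0859 and 0.10. TRBJ2-5 averaged 15.4% ± 4.10 of nonproductive rearrangements, with 21.4% in Tet2KO NOD 1 and 12.1% to 14.4% in the other libraries, and was not called (log2 fold change 0.26, adjusted p = 0.0745). TRBJ1-4, TRBJ1-5, TRBJ2-1, TRBJ2-2, TRBJ2-3 and TRBJ2-4 were not called either, with log2 fold changes between -0.25 and 0.14. The J pseudogene names that were looked for had no rearrangement in either class.

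A D segment was named in a minority of rearrangements. No D was named in 75.6% ± 1.93 of nonproductive and 76.5% ± 0.57 of productive rearrangements (SD, n = 4, log2 fold change -0.01, adjusted p = 0.901). TRBD1 averaged 17.7% ± 0.434 of nonproductive and 15.5% ± 1.04 of productive rearrangements (log2 fold change 0.19, adjusted p = 0.138). TRBD2 averaged 6.70% ± 1.67 and 8.02% ± 0.822 (log2 fold change -0.36, adjusted p = 0.0759). TRBD2 was called lower against the productive TRB of the same cells (-0.83, adjusted p = 0.000783), without Tet2KO NOD 1 (-0.47, adjusted p = 0.0256) and with TMM factors (-0.39, adjusted p = 0.0482). On the chromosome TRBD2 lies behind the TRBJ1 cluster and is not expected to join it by deletion. TRBD2 was named with a TRBJ1 segment in 1 of 101 nonproductive rearrangements with a D name and in 7 of 614 productive ones. With TRBJ2 it was named in 54.2% and 37.0% of nonproductive rearrangements with a D name in Tet2KO NOD and in 31.4% and 47.6% in NOD. The productive shares were 43.6% and 46.3% in Tet2KO NOD and 46.5% and 53.8% in NOD. The mean difference was -4.96 percentage points (exact sign-flip permutation p = 0.5), and the sign was positive in Tet2KO NOD 1 and negative in the other 3 libraries. It was -10.1 without Tet2KO NOD 1 (exact p = 0.25) and -1.59 without NOD 1. The nonproductive shares rest on 24 to 105 rearrangements a library, with 95% Wilson intervals as wide as 35.1% to 72.1% in Tet2KO NOD 1.

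**Figure D3:**
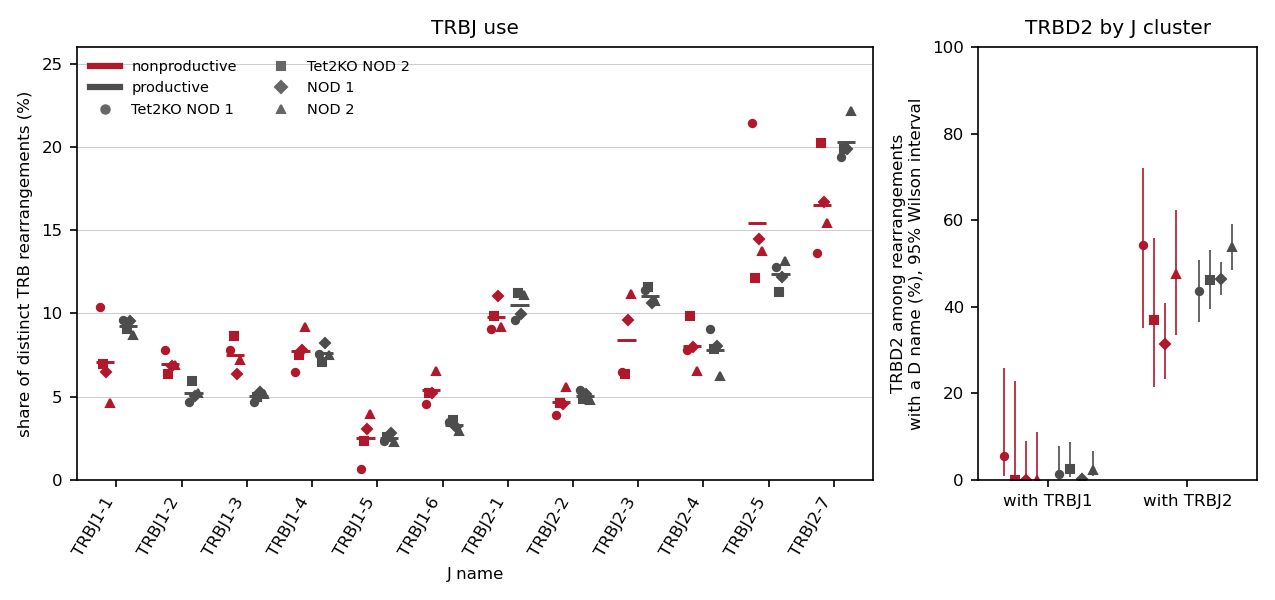
Left, share of distinct rearrangements with each J name (y axis, percent), nonproductive at the left of each pair and productive at the right, 1 point per library and a line at the mean. Right, share of TRBD2 among rearrangements with a D name, by J cluster, with 95% Wilson intervals that cover counting error only. TRBJ1-6 lies higher in the nonproductive class in all 4 libraries, and TRBD2 is almost absent with TRBJ1 in both classes.

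In cells with a single productive TRB, the nonproductive and the productive rearrangement can be set side by side. They shared their V name in 12 of 1079 distinct pairs (1.11%, 95% Wilson interval 0.637% to 1.93%), where the product of the class shares gives 5.26%. The observed share was 3.70% and 0.69% in Tet2KO NOD and 0.947% and 0.369% in NOD, below the product in each library. The contigs of a cell are assembled together, and whether assembly joins contigs with the same V was not tested. They shared their J name in 10.7% of pairs, against 10.4% from the product. They lay in the same J cluster in 60.0% of pairs, against 55.6% from the product, and above it in each library, with 64.9% against 55.5% in NOD 2 and smaller margins in the others. The whole V and J of a productive TRB of the cell recurred in 2 of the 1688 nonproductive contigs.

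Nonproductive TRB contigs carried fewer UMIs than the productive TRB of the same cell. Where a cell had several nonproductive contigs, that with the most UMIs was taken. Cells whose nonproductive transcript was not detected are left out, so the values below hold for detected contigs only. In the 1454 cells with 1 productive TRB, the median was 2 UMIs for the nonproductive contig in each of the 4 libraries, and 9.5 and 10 UMIs for the productive contig in Tet2KO NOD and 12 and 13 in NOD. The median log2 ratio within a cell, nonproductive over productive, was -1.94 and -2.32 in Tet2KO NOD and -2.12 and -2.58 in NOD, a ratio of 0.261, 0.20, 0.231 and 0.167 in that order. It averaged -2.24 ± 0.28 (SD, n = 4 libraries, exact sign-flip permutation p = 0.125, the smallest possible). The nonproductive contig was below the productive one in 88.5% and 90.4% of cells in Tet2KO NOD and in 91.5% and 92.4% in NOD. It was above it in 78 of the 1454 cells. Genotypes differed by 0.22 on the log2 scale, Tet2KO NOD minus NOD (exact permutation p = 0.667), and their libraries overlapped. The nonproductive contig held 20.1% and 17.9% of the UMIs of the pair in Tet2KO NOD and 17.9% and 17.0% in NOD.

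A single UMI supported 27.1% of nonproductive contigs and 1.29% of productive ones, so a nonproductive TRB with few transcripts is near the limit of detection here. The highest count of a nonproductive contig was 104 UMIs, in NOD 2, against 272 for a productive contig in the same library. By V name the median UMIs of distinct nonproductive rearrangements lay between 2 and 3 for all names but TRBV31, which had 4. Here each distinct rearrangement was counted once, by its contig with the most UMIs, so these medians are not those of all contigs. Reads per UMI were slightly lower for the nonproductive contigs of these cells, with medians of 2300 and 2014 in Tet2KO NOD against 2647 and 2189 for their productive contigs, and 890 and 1433 in NOD against 1053 and 1654.

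**Figure D4:**
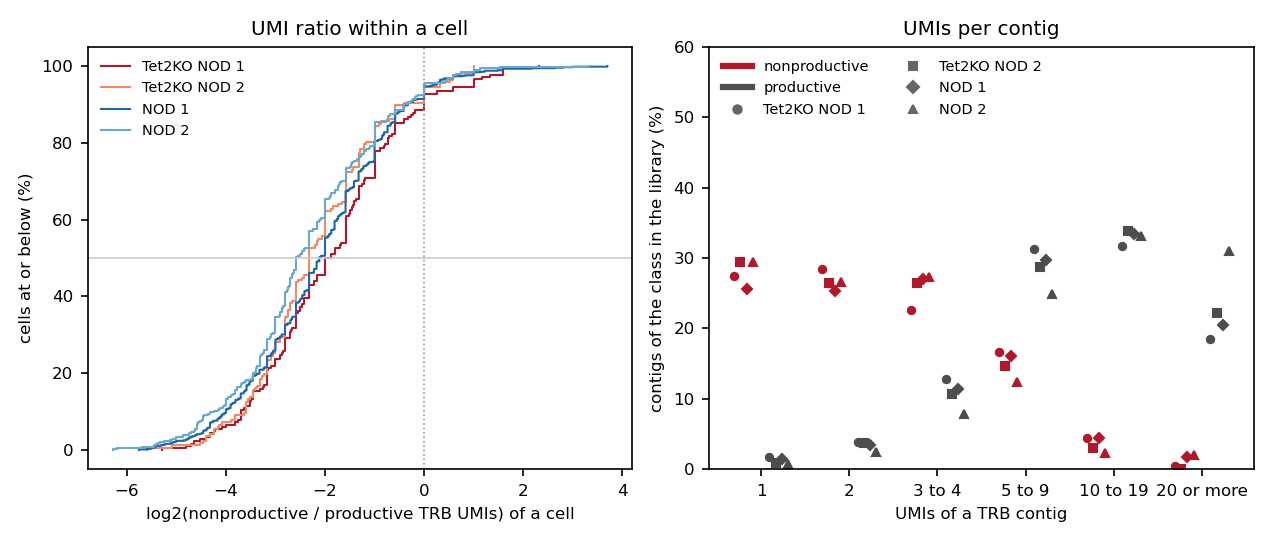
Left, cumulative share of cells (y axis, percent) by the log2 ratio of nonproductive to productive TRB UMIs of a cell, 1 line per library, for cells with 1 productive TRB. Right, share of TRB contigs (percent) with a given number of UMIs, by class and library; most nonproductive contigs have 1 to 4 UMIs and most productive ones 5 or more, in all 4 libraries.

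Expanded clones show how often a nonproductive TRB that the clone carries is seen in a cell. Of 284 clones with 5 or more cells, 96 had a nonproductive TRB in at least 1 cell. Of the 66 clones with at least 2 such cells, 60 had the same V and J in at least 2 of them, and 367 of 383 carrying cells of these 66 clones (95.8%) had the main V and J. In the 60 clones 361 of 912 cells (39.6%) had the clone's nonproductive V and J, with a median of 39.2% and a range of 9.09% to 87.5% over clones. The pooled share was 30.2% and 29.2% of cells in the Tet2KO NOD libraries, against 45.9% and 34.5% in the NOD libraries. It rests on 9 and 7 clones in Tet2KO NOD and on 29 and 15 in NOD. Medians over these clones were 27.5% and 28.6% in Tet2KO NOD and 40.0% and 33.3% in NOD. These clones were chosen for showing the rearrangement in 2 or more cells, which raises the share, and no test was made. The remaining cells of such clones are not shown to lack the rearrangement.

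In each library the clone with the same nonproductive V and J in the most cells was picked. Where called, its nonproductive CDR3 is shown beside its productive CDR3, with letters that match the end of the named V in capitals.
Tet2KO NOD 1, nonproductive TRBV16 TRBJ2-5: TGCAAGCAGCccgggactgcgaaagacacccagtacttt
Tet2KO NOD 1, productive TRBV20 TRBJ2-5: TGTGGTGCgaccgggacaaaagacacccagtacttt
Tet2KO NOD 2, nonproductive TRBV12-1 TRBJ2-2: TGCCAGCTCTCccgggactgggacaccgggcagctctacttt
Tet2KO NOD 2, productive TRBV13-1 TRBJ1-6: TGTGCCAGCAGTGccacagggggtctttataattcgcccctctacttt
NOD 1, nonproductive TRBV31 TRBJ2-4: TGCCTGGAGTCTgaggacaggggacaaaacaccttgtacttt
NOD 1, productive TRBV1 TRBJ2-2: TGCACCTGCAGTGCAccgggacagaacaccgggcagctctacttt
All 3 nonproductive calls begin 2 bases after the first base of the V cysteine codon and so are read out of the V frame, whereas the productive ones begin at that codon. In Tet2KO NOD 1 the nonproductive V and J were found in 14 of the clone's 51 cells, with the printed CDR3 in 13 of 14 contigs, and in Tet2KO NOD 2 in 4 of 9 cells. In NOD 1 they were found in 34 of 40 cells (85.0%, 95% Wilson interval 70.9% to 92.9%), with a median of 6 UMIs. In NOD 2 the largest was TRBV12-2+TRBV13-2 with TRBJ2-3 in 13 of 43 cells of a clone with a productive TRBV31 and TRBJ2-4, and none of its 13 contigs, all full length, had a CDR3 call.

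**Figure D5:**
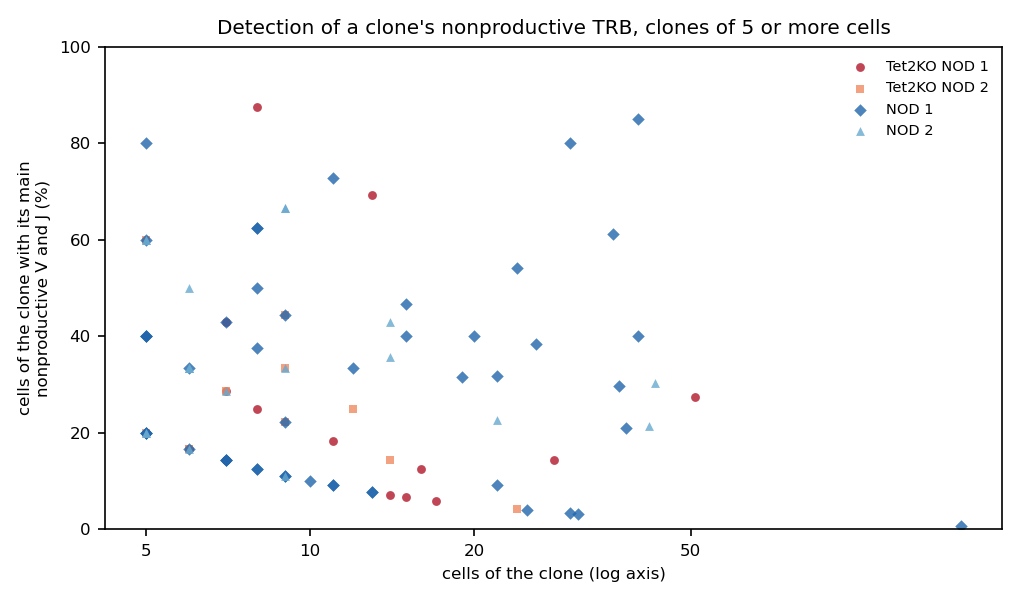
Share of the cells of a clone with its main nonproductive V and J (y axis, percent) against the number of cells of the clone (x axis, log axis), for the 96 clones of 5 or more cells with it in at least 1 cell, 1 point per clone, marked by library. The clone of 40 cells at 85.0% is the TRBV31 rearrangement of NOD 1.

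Nonproductive segment use of Tet2KO NOD was set against that of NOD with edgeR over the 28 names with enough counts. No name was called in either direction (0% of 28), and 2 names had an unadjusted p below 0.05. DESeq2 also called 0, and had 0 at an unadjusted p below 0.05. The names with the smallest p were TRBV13-1, TRBJ2-3 and TRBJ1-5. TRBV13-1 was named in 2.60% and 3.47% of the Tet2KO NOD nonproductive rearrangements, against 5.68% and 6.23% of the NOD ones (log2 fold change -0.93 ± 0.44, adjusted p = 0.56). TRBJ2-3 was named in 6.49% and 6.36% of the Tet2KO NOD ones, against 9.58% and 11.1% of the NOD ones (log2 fold change -0.65 ± 0.31, adjusted p = 0.56). TRBJ1-5 was named in 0.649% and 2.31% of the Tet2KO NOD ones, against 3.08% and 3.93% of the NOD ones (log2 fold change -1.12 ± 0.59, adjusted p = 0.56). The Tet2KO NOD shares of TRBJ1-5 rest on 1 of 154 and 4 of 173 rearrangements. The genotypes did not overlap for these 3 names, as for 10 of the 28 names (35.7%).

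The difference between nonproductive and productive use was compared between genotypes by an interaction term over 36 names, and no name was called (0%). A single name, TRBV23, had an unadjusted p below 0.05, with a log2 difference of -2.05 ± 0.69, Tet2KO NOD against NOD (adjusted p = 0.896). That value rests on 2 and 3 productive TRBV23 rearrangements in Tet2KO NOD and 2 and 2 in NOD. As described above, the name may not hold the same segment in both classes. DESeq2 called 0 and had 0 at an unadjusted p below 0.05. The Tet2KO NOD libraries held 154 and 173 distinct nonproductive rearrangements, against 616 and 305 in NOD, and these counts set the errors given.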

How the data were processed

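Contigs of 4 single-cell T-cell receptor libraries were deposited by the authors as tables with whole-number counts of reads and UMIs per contig and its length in bases (another unit, per the file headers). Cell Ranger 7.0.1 was used with GRCm38 (mm10), per the submitters' processing notes, and its V(D)J segments are not given in the sources used here. Nonproductive TRB contigs were selected by the flags, and counts of distinct rearrangements per segment were tested with edgeR 4.0.16 (R 4.3.3, library sizes as the number of rearrangements, at least 10 in at least 2 columns, adjusted p under 0.05). DESeq2 1.42.0 was an alternative. edgeR's common dispersion was 9.77e-05, its lower limit, so these p-values rest mainly on counting error. Single values were tested by exact permutation or sign-flip over libraries. Wilson intervals cover counting error only, and PCR reads are not independent molecules. Pools carry set numbers 1 and 2, but nothing in the labels says that a number marks a shared batch.

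On simulated counts of 36 segments for the class comparison, 6 changed, the test recovered 49.3% of 1.5-fold, 82.3% of 2-fold and 93.0% of 3-fold changes. Each count was drawn independently with a dispersion of 0.001, so pools hardly varied and names had no common total. Fewer names were changed than the 20 called in the data, so the rates hold for that setting only. Segments were named by a fixed rule: called names by size, the 6 most frequent nonproductive V, all J with 10 or more, TRBD1, TRBD2, TRBV1, TRBV2, TRBV26, TRBV31, and the 3 smallest p between genotypes. Members, lists and tests were chosen with earlier results of these data known.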

Additional observations from a re-analysis of the deposited data

Results flagged for a closer look

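TRBJ1-5 went opposite ways in the genotypes: its nonproductive share minus its productive share was -1.68 and -0.28 percentage points in the Tet2KO NOD libraries and 0.25 and 1.63 in the NOD libraries, a difference of -1.92. The Tet2KO NOD nonproductive shares rest on 1 of 154 and 4 of 173 rearrangements. This difference of shares was not tested on its own. In the edgeR interaction test over 36 names TRBJ1-5 was at -1.03 ± 0.60 on the log2 scale (adjusted p = 0.896), and no name was called. With groups of 2 libraries no test for a library that stands apart was possible.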

How the results depend on the processing

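TRBV10, TRBV12-1 and TRBV12-2+TRBV13-2 kept their direction and call in all alternatives that could be run for them. TRBV23 did so in the 15 of 17 alternatives that could be run for it. It had too few counts among full-length contigs, with 6 of its 98 nonproductive rearrangements, and among out-of-frame calls, so its dependence on these was not tested. The call held in 9 of 17 alternatives for TRBV16, in 10 for TRBJ1-2 and TRBJ2-7, in 11 for TRBJ1-3, TRBV1, TRBV19 and TRBV31, and in 13 to 16 for the other names called. These counts include the out-of-frame alternative, where names with few or no such calls had their outcome set by that lack. Out of frame were 0 of 6 matched TRBV1 calls, 0 of 15 TRBV2 calls and 1 of 15 TRBV13-3 calls. The 10 names called higher became 5 with each cell counted once, 6 with DESeq2 and 6 against the productive TRB of the same cells, and 7 to 10 with a library left out. The 10 called lower became 6 with each cell counted once, 6 with DESeq2, and 6 to 9 with a library left out, with 6 both without NOD 1 and without NOD 2. TRBJ1-1 turned to 0.0087 against the productive TRB of the same cells. Among out-of-frame calls, chosen after the data were seen, TRBV12-2 turned to -0.13, TRBV16 to 0.43 and TRBV17 to -7.14, a value set by its lack of such calls. With TRBV10 counted among TRBV1 to TRBV5, an alternative chosen after the data were seen, the share difference of these names turned to 1.24 percentage points. The TRBV31 share difference turned to -0.85 percentage points against the productive TRB of the same cells. The difference in TRBD2 with TRBJ1, -0.26 percentage points, became 0.43 with full-length contigs and 0.12 with 2 or more UMIs, and ranged from -1.71 to 0.48 with a library left out. Genotype differences in the share of called cells stayed negative. For clones the difference ranged from -1.10 to 0.64 with a library left out, and it was 0.61 within set 1 and -1.06 within set 2, the replicate block. The genotype difference in UMI ratio ranged from -0.014 to 0.455 with a library left out. The set number as a replicate block gave 0 calls between genotypes, 3 names at an unadjusted p below 0.05. Deviations of same-numbered libraries correlated at 0.41 over 28 names, but with 2 pairs and no label for a batch the samples share only a number. The causes of these changes were not tested. Of nonproductive contigs 27.1% had 1 UMI, and 2 libraries a genotype allow no permutation p below 0.333.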
